A study of Bos indicus with 5 samples.

Results

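Ghrelin (GHRL) and the GLP1 receptor (GLP1R) are genes of gut hormone signaling, and they are described here in the ampulla, the wide part of the oviduct where fertilization takes place. They were selected by symbol because earlier results from these same libraries had shown higher values in SF/SCL, so that their difference between the groups is given as a description and was not tested. Each symbol matched 1 entry, which makes 2 genes of the 24616 in the table. RNA sequencing was performed on the ampulla of 5 multiparous, non-lactating Nelore (Bos indicus) cows, 2 in LF/LCL (large follicle, large corpus luteum) and 3 in SF/SCL (small follicle, small corpus luteum), with 1 cow per library. All cows were presynchronized with a prostaglandin F2 alpha (PGF) analog and a GnRH agonist. On day -10 all received an intravaginal progesterone device and estradiol benzoate, and the LF/LCL cows alone also received PGF on that day. The device was removed 42 h before the GnRH agonist of day 0 in LF/LCL and 30 h before it in SF/SCL. All cows were given PGF at removal and again 6 h later. The full thickness of the ampulla on the side of the corpus luteum was taken on day 4. Per the methods of the study, cows were ranked by follicle diameter and plasma estradiol before GnRH, and by corpus luteum area and plasma progesterone on day 4. The top-ranked LF/LCL cows and the bottom-ranked SF/SCL cows were sequenced, so the libraries do not sample each group at random.

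Ghrelin is a peptide hormone best known from endocrine cells of the stomach, where it is cut from a precursor and carries a fatty acid on a serine. That acyl group is added by ghrelin O-acyltransferase, the product of MBOAT4, and it is needed for binding to the ghrelin receptor GHSR, which signals through Gq. GLP1R is a class B1 G protein-coupled receptor that raises cAMP through Gs. Its ligand GLP1 is cut from proglucagon (GCG) by the convertase PCSK1 in gut L cells, and it is inactivated by the peptidase DPP4.

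Libraries held from 13418278 to 19592174 reads assigned to genes, and between 17431 and 17653 genes were detected in each. All values are normalized read counts, that is, reads divided by the size factor of the library. Markers of the labeled tissue were present in every library. OVGP1, the oviductal glycoprotein of secretory cells, ranged from 117179 to 147247 normalized reads, and FOXJ1, a transcription factor of ciliated cells, ranged from 8481 to 12698. In contrast, the islet hormones INS, IAPP and SST were at 0 in all libraries. Of the markers of ovarian steroidogenic cells, the gonadotropin receptors LHCGR and FSHR were at 0, whereas STAR, which brings cholesterol to the mitochondrion, ranged from 47.8 to 85.9 normalized reads with overlapping groups.

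GHRL (ENSBTAG00000012328) was low in LF/LCL, with 88.0 normalized reads in replicate 1 and 135 in replicate 2. In SF/SCL it reached 745 in replicate 1, 3240.0 in replicate 2 and 2825 in replicate 3. The groups did not overlap, since the lowest SF/SCL library was 5.54-fold above the highest LF/LCL library. Group means were 111.2 ± 32.9 (SD, n = 2) in LF/LCL against 2270.0 ± 1337 (SD, n = 3) in SF/SCL, a ratio of 20.4. On the scale of log2(normalized reads + 1), LF/LCL minus SF/SCL was -4.11 (SE 0.66). Each SE of a log2 difference, here and below, comes from limma, which draws a gene's variance toward that of other genes. The within-group SD of GHRL itself on this scale was 0.987. As a share of all reads, GHRL took 5.59 CPM (counts scaled to a common library total; exact 95% binomial confidence interval 4.40 to 7.01) in LF/LCL replicate 1 and 213 (206 to 219) in SF/SCL replicate 2. These intervals cover counting error only. The spread between cows was 4.35-fold across SF/SCL, far wider than counting error there. Across LF/LCL it was 1.53-fold, no wider than the interval of LF/LCL replicate 1. Among 13128 genes with a mean of at least 50 normalized reads and a read in every SF/SCL library, 1.93% had an SF/SCL range as wide as that of GHRL.

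GLP1R (ENSBTAG00000018224) was low in LF/LCL, with 2.35 normalized reads in replicate 1 and 33.9 in replicate 2. SF/SCL libraries held 203, 92.5 and 367 in replicates 1, 2 and 3. Again the groups did not overlap, although the gap was narrower, with the lowest SF/SCL library 2.73-fold above the highest LF/LCL library. Means were 18.1 ± 22.3 (SD, n = 2) in LF/LCL against 220.8 ± 138.2 (SD, n = 3) in SF/SCL, a ratio of 12.2. On the log2(normalized reads + 1) scale the difference was -4.15 (SE 1.09), with a within-group SD of 1.60. The value of LF/LCL replicate 1 rests on 2 reads, under the 3 reads that a count of 0 allows, against 35 reads in replicate 2. The ratio between these 2 cows was 14.4, with a counting interval of 3.71 to 124. Without LF/LCL replicate 1 the log2 difference was -2.46, and without LF/LCL replicate 2 it was -5.84, so the size of the GLP1R difference depends on which LF/LCL cow is kept.

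**Figure D1:**
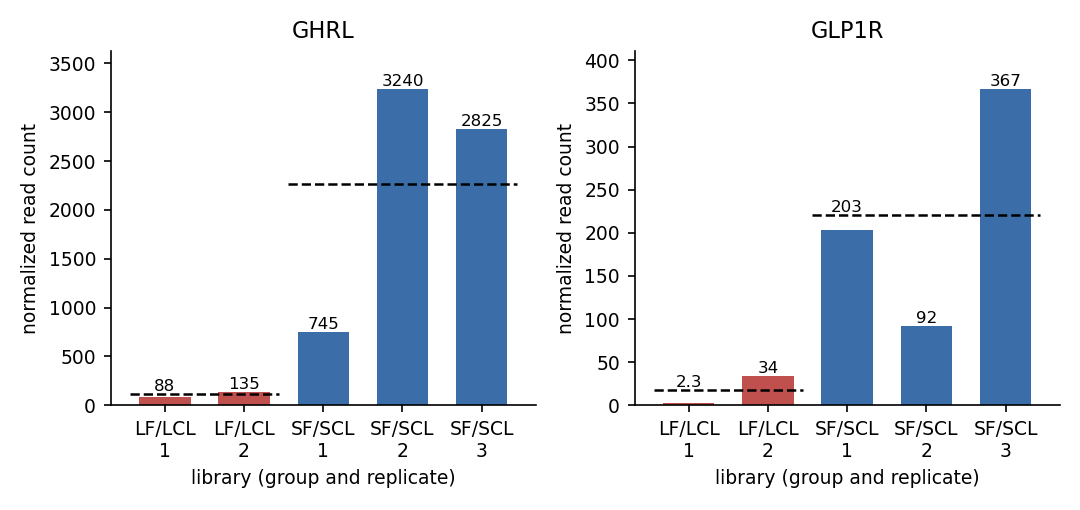
Normalized read counts of GHRL (left) and GLP1R (right) in each of the 5 ampulla libraries, on linear axes that start at 0 and differ between panels, with LF/LCL in red and SF/SCL in blue. Dashed lines are the group means; all 3 SF/SCL bars stand above both LF/LCL bars for each gene, but the tallest GHRL bar is SF/SCL replicate 2 (3240.0) and the tallest GLP1R bar is SF/SCL replicate 3 (367).

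Although both genes were higher in SF/SCL, the order of the cows within that group differed. GHRL was highest in SF/SCL replicate 2 and lowest in replicate 1, whereas GLP1R was highest in replicate 3 and lowest in replicate 2. Accordingly, there were 35.0 GHRL reads for each GLP1R read in SF/SCL replicate 2, 7.70 in replicate 3 and 3.68 in replicate 1. In LF/LCL the same ratio was 37.5 in replicate 1, where it rests on 2 GLP1R reads and is poorly determined, and 3.97 in replicate 2. Non-overlapping groups with SF/SCL above were seen in 15.1% of the 15815 genes with a mean over 5 normalized reads, so that the lack of overlap alone is common with 2 and 3 libraries.

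Genes next to GHRL and GLP1R on the chromosome were examined in a gene table of another assembly, NIAB-ARS_B.indTharparkar_mat_pri_1.0, which was used only for gene order. Neither gene overlapped another in that table. GHRL lies between TMEM42 and SEC13 on chromosome 22, and their log2 differences were 0.12 (SE 0.20) and -0.07 (SE 0.11). GLP1R lies between DNAH8 and SAYSD1 on chromosome 23, with differences of -0.03 (SE 0.34) and -0.17 (SE 0.21). The groups overlapped for all 4 neighbors.

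The enzyme that acylates ghrelin was examined next. MBOAT4 (ENSBTAG00000000743) had 2.35 normalized reads in LF/LCL replicate 1 and 15.5 in replicate 2, against 89.4, 127 and 67.6 in the SF/SCL cows 1 to 3. The groups did not overlap, with means of 8.92 ± 9.29 (SD, n = 2) and 94.6 ± 29.9 (SD, n = 3). The log2 difference was -3.64 (SE 0.73), but it did not pass the test over all genes with limma (adjusted p = 0.235) or with edgeR's quasi-likelihood test (adjusted p = 0.269). DESeq2 alone gave an adjusted p of 0.000448, while the adjusted p over the other alternatives ran from 0.194 to 0.394. Without LF/LCL replicate 1, which held 2 MBOAT4 reads, the difference was -2.49. MBOAT4 was highest in the cow with the most GHRL, SF/SCL replicate 2, but lowest of its group in SF/SCL replicate 3, where GHRL was also abundant. There were 8.34, 25.6 and 41.8 GHRL reads for each MBOAT4 read in SF/SCL replicates 1, 2 and 3, and 37.5 and 8.69 in LF/LCL replicates 1 and 2. The neighbors of MBOAT4 on chromosome 27 of the same table, LEPROTL1 and DCTN6, had overlapping groups and differences of -0.03 and -0.07.

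The ghrelin receptor itself was close to undetected. GHSR had 2 reads in each LF/LCL library and 1 or 2 reads in each SF/SCL library, no more than the 3 reads that a count of 0 allows, so no level or difference can be given at this depth. The receptor of motilin, a hormone related to ghrelin, was listed at 0 in all libraries (MLNR). Of 12 genes in the ghrelin list, 11 were matched and 6 were tested, and none passed an adjusted p of 0.05 with limma. LYPLA1, a thioesterase able to remove the acyl group, showed almost no spread, from 524 to 570 normalized reads over the 5 libraries, with a difference of -0.02 (SE 0.12). BCHE, butyrylcholinesterase, which also removes it, ranged from 77.7 to 127 with overlapping groups. GHR, the growth hormone receptor, ranged from 68.7 to 167 with overlapping groups.

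On the GLP1 side, the ligand gene was close to undetected. GCG had 2 reads in LF/LCL replicate 2, 2 in SF/SCL replicate 2 and 0 in the other libraries, where a count of 0 allows up to 0.203 to 0.224 CPM. PCSK1 had 2 reads in each LF/LCL library and 0 in each SF/SCL library, which allows up to 0.153 to 0.21 CPM. DPP4, the peptidase that inactivates GLP1, had 57.5 and 84.2 normalized reads in LF/LCL against 112, 161 and 103 in SF/SCL. Its groups did not overlap and its difference was -0.81 (SE 0.32), with a limma p of 0.0447 and an adjusted p of 0.421. MME, neprilysin, another peptidase that degrades such peptides, ranged from 4357 to 8063 normalized reads, and its groups overlapped (difference -0.0049, SE 0.27). CPE, the carboxypeptidase that trims prohormones, ranged from 361 to 714 with overlapping groups. Of the 7 genes in this list, 5 were tested and 0 passed the adjusted threshold with limma.

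**Figure D2:**
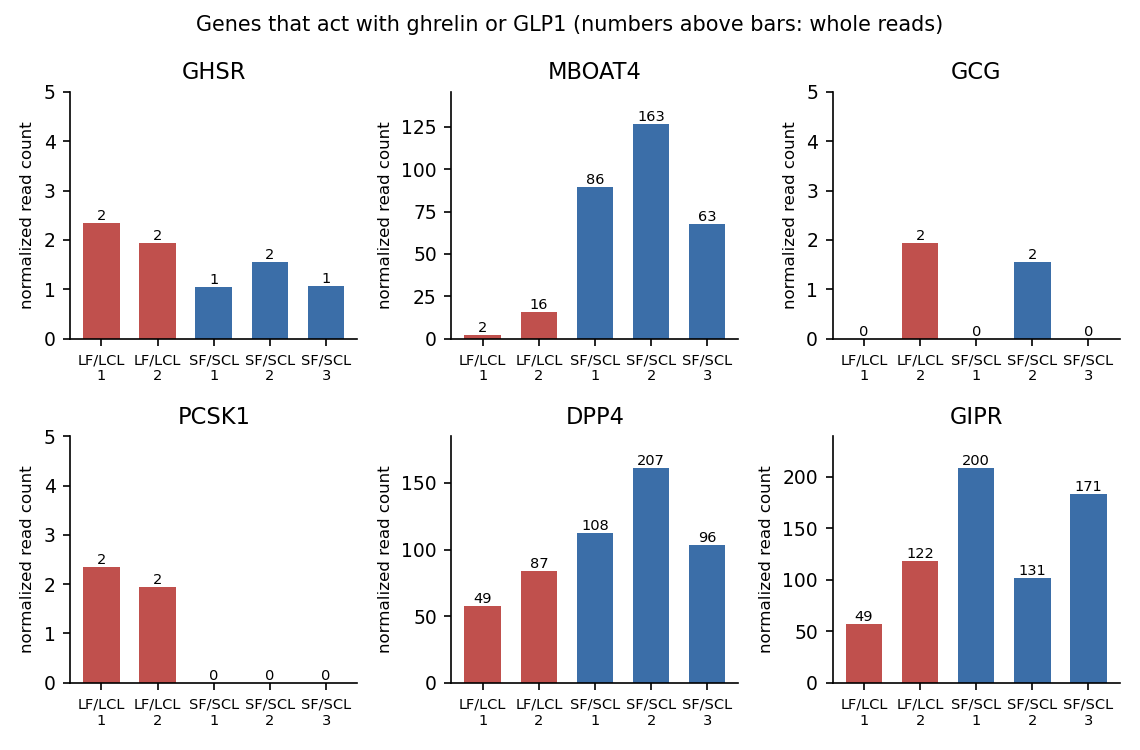
Normalized read counts of 6 genes that act with ghrelin or GLP1 or are close relatives of GLP1R, by library, on linear axes from 0, with LF/LCL in red, SF/SCL in blue and whole reads printed above each bar. GHSR, GCG and PCSK1 never exceed 2 reads, whereas MBOAT4 has 2 and 16 reads in LF/LCL and between 63 and 163 in SF/SCL.

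Receptors of the same family as GLP1R had differences in both directions. The closest relatives are the receptors of glucagon, GLP2 and GIP. GCGR had at most 3.52 normalized reads, and GLP2R had 7.04 and 7.74 in LF/LCL against 2.08, 2.33 and 5.37 in SF/SCL, too few to be tested. GIPR had 57.5 and 118 in LF/LCL against 208, 102 and 184 in SF/SCL, so that its groups overlapped (difference -0.92, SE 0.44, limma adjusted p = 0.491). VIPR2, a receptor of vasoactive intestinal peptide, had the opposite direction, with 2632 and 3008 normalized reads in LF/LCL against 993, 1439 and 757 in SF/SCL. Its difference was 1.45 (SE 0.27), which DESeq2 called (adjusted p = 0.000299) and limma did not (adjusted p = 0.222). PTH1R and CALCRL, receptors of parathyroid hormone and of calcitonin gene-related peptides, had overlapping groups. Of 14 receptors of the family, 13 were matched and 6 tested, and none passed the adjusted threshold with limma. Of 17 ligand genes of the family, 14 were matched, and of these PTHLH and CRH had a mean high enough to be tested, both with overlapping groups.

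Components that act downstream of the receptors were examined as 2 lists. In the list of cAMP signaling, 28 entries were tested, 14 were higher in each group and the median log2 difference was 0.01. Of these, ADCY2 (an adenylyl cyclase), PRKAR1B (a regulatory subunit of protein kinase A) and CREM (a transcription factor of the cAMP response) were higher in SF/SCL at an unadjusted limma p under 0.05, with differences of -0.75, -0.53 and -0.68. On the LF/LCL side were the cyclases ADCY5 (1.24) and ADCY8 (0.81) and the phosphodiesterase PDE3B (1.61), which had 1250.2 and 1477 normalized reads in LF/LCL against 453, 268 and 719 in SF/SCL. GNAS, which encodes the Gs alpha subunit, ranged from 11603 to 15858 in its tested entry (ENSBTAG00000017475), and the groups overlapped. A further GNAS entry (ENSBTAG00000047223) had at most 4.69 normalized reads and was not tested. Its groups did not overlap, with LF/LCL above. In the list of Gq signaling, all 13 genes were tested, of which 10 were higher in SF/SCL and 3 in LF/LCL, with a median of -0.14. ITPR3, an IP3 receptor, and PRKCE, a protein kinase C, were higher in SF/SCL (-0.42 and -0.48), and PLCB1, a phospholipase C, was higher in LF/LCL (0.88), again only before adjustment with limma.

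Genes known from hormone cells of gut and islet were examined as 2 lists. Of 12 transcription factors, 11 were matched. Among them, NEUROG3, NEUROD1, NKX2-2 and PAX4 were at 0 in all libraries, and only PAX6 was tested. PAX6 had 1.17 and 2.90 normalized reads in LF/LCL against 22.9, 28.0 and 11.8 in SF/SCL. The difference was -2.83 (SE 0.67, limma adjusted p = 0.282, DESeq2 adjusted p = 0.0626). Of 15 granule and neuroendocrine genes, 10 were tested, of which 6 were higher in SF/SCL and 4 in LF/LCL, with a median of -0.26. CHGA and CHGB, the chromogranins, had at most 12 and 2 reads in a library and were not tested. KCNJ11, a subunit of the ATP-sensitive potassium channel, had 182 and 219 in LF/LCL against 428, 281 and 362 in SF/SCL. The difference was -0.82 (SE 0.22, limma adjusted p = 0.308, DESeq2 adjusted p = 0.0724). ABCC8, the other subunit of that channel, ranged from 276 to 857 with overlapping groups. With its own test and threshold, the study listed PAX6 and KCNJ11 among differentially expressed genes of the SF/SCL ampulla. In the opposite direction, PTPRN2 had 27.0 and 28.1 in LF/LCL against 8.32, 17.9 and 7.51 in SF/SCL. Its groups did not overlap (1.32, SE 0.56, limma adjusted p = 0.45). PAM, which amidates peptides, had close means (2551 ± 658 (SD, n = 2) and 2621 ± 361.9 (SD, n = 3)).

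Other gut peptide genes went in both directions. GUCY2C, the receptor of guanylin, had 19.9 and 51.3 normalized reads in LF/LCL against 114, 67.6 and 99.8 in SF/SCL (-1.49, SE 0.49), and TACR2, a tachykinin receptor, had a difference of -0.83 (SE 0.32). NMB, neuromedin B, was higher in LF/LCL with 3247 and 5629.5 against 1128, 1315 and 509 (2.23, SE 0.46). NMB was called by DESeq2 (adjusted p = 6.06e-05) but not by limma (adjusted p = 0.248). CCK, GAST and the guanylin genes GUCA2A and GUCA2B were listed at 0 in all libraries.

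Over the 9 lists together, 150 entries were matched, 19 were at 0 in all libraries and 85 were tested. None passed an adjusted p of 0.05 with limma or with edgeR's quasi-likelihood test, as for the whole table (0 genes and 0.0% with each). At an unadjusted limma p under 0.05 there were 11 genes higher in SF/SCL (12.9%, against 5.86% of all genes tested) and 6 higher in LF/LCL (7.06%, against 5.64%). Groups did not overlap for 16 genes with SF/SCL above (18.8%, against 15.1%) and for 8 with LF/LCL above (9.41%, against 15.0%). DESeq2 called 1 gene higher in SF/SCL, MBOAT4 (1.18%, against 1.5%), and 3 higher in LF/LCL, VIPR2, PDE3B and NMB (3.53%, against 1.4%). The median log2 difference was -0.01 over the lists and 0.01 over all genes tested. The 17 genes at an unadjusted p under 0.05 became 7 without LF/LCL replicate 1 and 9 without SF/SCL replicate 3.

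**Figure D3:**
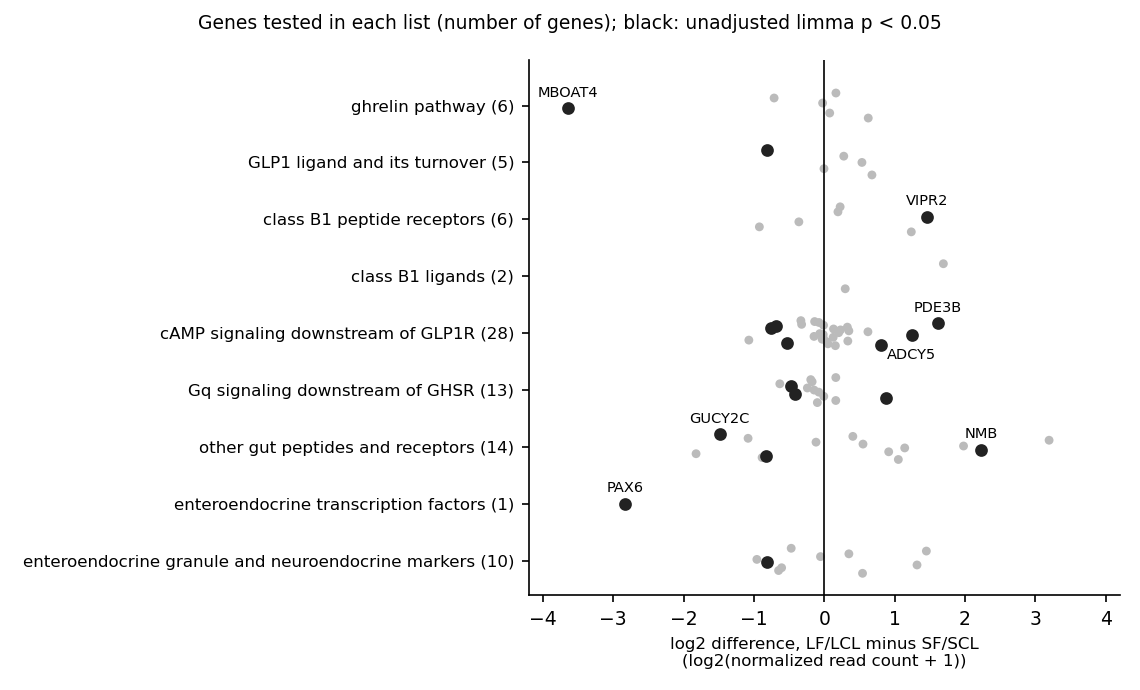
Log2 difference, LF/LCL minus SF/SCL, of each gene tested in the 9 lists (rows, with the number of genes tested; height within a row has no meaning), where values left of 0 are higher in SF/SCL. Black points have an unadjusted limma p under 0.05 and those beyond 1.2 in size are named; MBOAT4 (-3.64) and PAX6 (-2.83) lie farthest to the left, and most points of the cAMP and Gq lists lie near 0.

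Levels of markers of the ampulla wall were also unequal between the groups. None passed an adjusted p of 0.05 with limma. DESeq2 called 3 of 13 tested ciliated cell markers higher in SF/SCL, against 1.5% of all genes tested in that direction. It called 4 of 9 smooth muscle markers higher in LF/LCL, against 1.4% of all genes tested in that direction. In bulk tissue fewer cells of a type and less RNA per cell cannot be told apart. All 13 tested ciliated cell markers were higher in SF/SCL, with a median log2 difference of -0.49 and 9 at an unadjusted limma p under 0.05 (5.86% of all genes tested were so in that direction), and their summed level was 50980 to 66550 normalized reads in LF/LCL and 79160 to 79770 in SF/SCL. All 9 tested smooth muscle markers were higher in LF/LCL, with a median of 1.47, 8 at an unadjusted limma p under 0.05 (5.64% of all genes tested in that direction), and sums of 56320 to 111600 in LF/LCL and 14380 to 38070 in SF/SCL. The list of secretory cell markers gave overlapping sums of 176400 to 196200 in LF/LCL and 171200 to 198600 in SF/SCL, of which OVGP1 made up most. OVGP1 itself had overlapping groups (-0.07, SE 0.15). The list also holds EPCAM and keratins, whose restriction to secretory cells was not checked here. Of the 10 genes, 7 were higher in LF/LCL, with a median of 0.31. At an unadjusted limma p under 0.05, 4 of the 10 had LF/LCL above (5.64% of all genes tested) and 1 had SF/SCL above (5.86%). DESeq2 called 2 of the 10, both with LF/LCL above (1.4% of all genes tested). Of the ovarian markers, CYP11A1, the enzyme that starts steroid synthesis, had 61.0 and 84.2 normalized reads in LF/LCL against 119.6, 146 and 236 in SF/SCL (-1.15, SE 0.36). AMH, anti-Müllerian hormone, had 8.21 and 9.68 against 16.6, 21.8 and 37.6 (-1.33, SE 0.54). The groups did not overlap for either gene, with SF/SCL above as for GHRL and GLP1R, and the limma adjusted p was 0.345 and 0.427. Of the 6 ovarian markers tested, however, 3 were higher in SF/SCL and 3 in LF/LCL. Groups did not overlap for 3 with SF/SCL above (15.1% of all genes tested) and for 1 with LF/LCL above (15.0%). The latter was INHBA (0.99, SE 0.56). Within SF/SCL, where GHRL and GLP1R spanned 4.35-fold and 3.97-fold, the ciliated sum lay between 79160 and 79770. Single ciliated markers moved in opposite ways under this sum. In SF/SCL replicate 3, DNAH5 was highest of the group (12257 normalized reads) and RSPH1 was lowest (2604). The smooth muscle sum was lowest in SF/SCL replicate 3, the cow with the most GLP1R, and highest of its group in SF/SCL replicate 2, the cow with the most GHRL. The part of cell composition, ovarian cells included, in the differences of GHRL and GLP1R was not tested. Of the remaining marker lists, medians were 0.40 for stromal, 0.27 for endothelial, 0.44 for immune, 0.87 for nerve and -0.54 for ovarian steroidogenic cells. At an unadjusted limma p under 0.05, SF/SCL was above for 1 of 7 endothelial, 1 of 7 nerve and 2 of 6 ovarian markers. LF/LCL was above for 4 of 9 immune and 2 of 7 nerve markers. DESeq2 called KDR (endothelial) and SNAP25 (nerve) higher in SF/SCL, and IL2RG (immune) and S100B (nerve) higher in LF/LCL. None of the 7 matched pancreatic islet markers, of 8 listed, had a mean high enough to be tested.

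The genes whose profile over the 5 libraries was most like each of the 2 genes were also listed. Likeness was the root mean square difference of log2(normalized reads + 1) after centering each gene, over 11951 genes with a symbol and a mean of at least 50. Closest to GHRL were FOXRED2 (0.61), HPGD (0.64), F5 (0.64), GFRA3 (0.67) and KCNS3 (0.82). FOXRED2, an endoplasmic reticulum oxidoreductase, had 217 and 532 normalized reads in LF/LCL against 2221, 5519 and 3314 in SF/SCL. HPGD, which inactivates prostaglandins, had 28.1 and 32.9 against 119, 403 and 278. As for GHRL, both were highest in SF/SCL replicate 2. Closest to GLP1R were CDH17 (0.65), SLC45A2 (0.85), GFRA3 (0.93), GPRIN3 (0.95) and DYNC1I1 (0.99). CDH17, a cadherin best known from intestinal epithelium, had 4.69 and 22.3 normalized reads in LF/LCL against 92.5, 56.0 and 209 in SF/SCL, with the same order of cows as GLP1R. GFRA3, a co-receptor of the GDNF family, was the gene shared by both lists, with 3.52 and 19.4 in LF/LCL against 142, 305 and 237 in SF/SCL. GLP1R stood only at place 48 in the order of likeness to GHRL, and GHRL at place 25 in that to GLP1R, with a difference of 1.36 between them. MBOAT4, mentioned here after its values were seen, stood at place 9 for GHRL and 6 for GLP1R. With 5 libraries in 2 groups, likeness mostly repeats the difference between the groups and is given as a description.

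**Figure D4:**
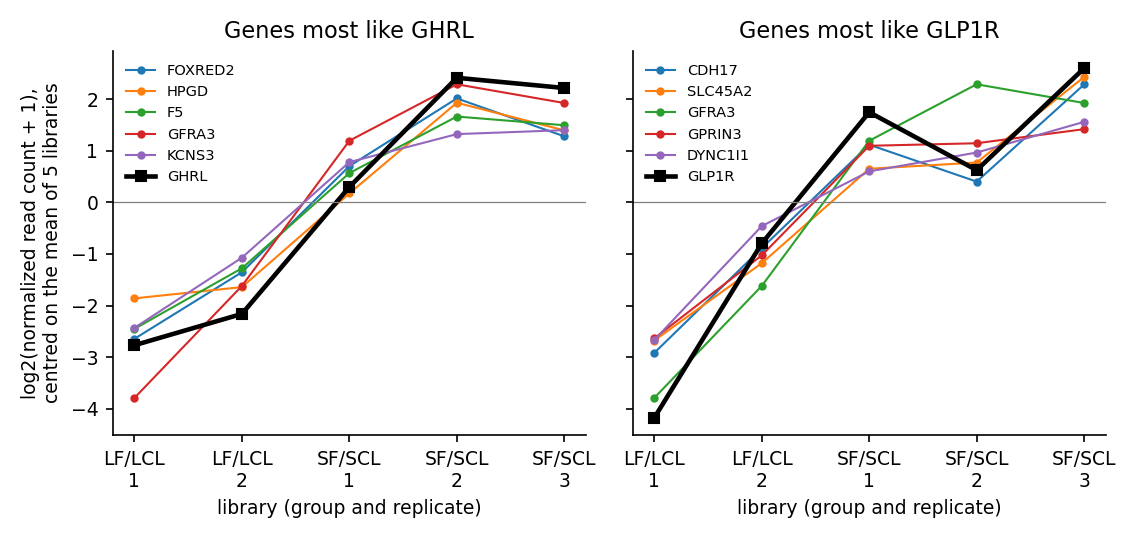
Profiles of GHRL (left, black) and GLP1R (right, black) with the 5 genes most like each, as log2(normalized read count + 1) centered on the mean of the 5 libraries (1 point per library, joined by lines only to show which gene they belong to). GHRL and its closest genes are highest or near highest in SF/SCL replicate 2, and GLP1R and CDH17 dip there and are highest in SF/SCL replicate 3.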

How the data were processed

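The authors prepared polyA libraries, sequenced read pairs and aligned them with TopHat2 (2.0.8) and Bowtie2 (2.1.0) to the masked UMD cattle assembly. Reads were counted by gene with HTSeq (0.5.4p2), and whether strand was used is not given in the sources used here, so that antisense or overlapping transcripts may add to a gene. The deposited table is a normalized signal, made by the authors by dividing each read count by a DESeq (1.12.1) size factor per library. Whole reads were recovered for 100% of the nonzero values in every library (tolerance 0.05 reads). No sequence or coordinate of GHRL or GLP1R is given, as the gene table used here covers another assembly. A further LF/LCL library was left out by the authors for its low number of reads.

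The main test was limma (3.58.1; R 4.3.3; lmFit and eBayes with trend and robust) on log2(value + 1), for 15815 genes with a mean value over 5. The added 1 shrinks the log2 differences of low genes. Even so, the GLP1R difference was larger in size on this scale (-4.15) than with DESeq2 (-3.59), so it is not a lower bound. The limma test was two-sided and without covariates. Benjamini-Hochberg adjustment covered the whole set of tested genes, and the threshold was an adjusted p of 0.05. It called 0 genes. At an unadjusted p under 0.05 it had 1819 genes. On the recovered reads, edgeR's quasi-likelihood test (4.0.16) called 0 genes and DESeq2 (1.42.0) called 460. Fits were tested on simulated data. No libraries held identical values, and no batch is named in the labels.

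The 2 genes and all gene lists were chosen with earlier results of these data known. Named were GHRL and GLP1R, genes of the pathway lists with an unadjusted limma p under 0.05 and no overlap between groups, GHSR, MBOAT4, GCG, PCSK1 and DPP4 whatever their values, up to 3 genes of highest mean per list, the 5 genes most like GHRL and GLP1R, and the neighbors on the chromosome. Other genes named (among them the relatives GIPR, GCGR, GLP2R and MLNR, genes at 0, cell markers and the neighbors of MBOAT4) were chosen after their values were seen. Of 160 symbols in the pathway lists, 11 were not matched and were not analysed here. No gene lengths were used, so a ratio of reads between 2 genes is compared between libraries only and is not a ratio of their levels.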

Additional observations from a re-analysis of the deposited data

How the results depend on the processing

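The log2 difference of GHRL (LF/LCL minus SF/SCL) lay between -4.35 (DESeq2) and -4.06 (pseudocount 5) over the scalings, pseudocounts and models tried, and between -4.78 and -3.73 when each library was left out in turn. That of GLP1R was -3.54 with pseudocount 5 and ranged from -5.84 to -2.46 when each library was left out, the extremes being those without LF/LCL replicate 2 and replicate 1. Where 1 LF/LCL library was left, it is assumed to vary like the SF/SCL libraries. Counts of pathway genes and of all genes past the adjusted threshold were 0 under every limma alternative and under edgeR, and 0 to 0 over the libraries left out, but DESeq2 called 4 pathway genes and 460 genes in all; the cause was not tested. Pathway genes at an unadjusted p under 0.05 numbered 17, from 14 (edgeR) to 20 (no filter on low values), and 7 to 18 with a library left out. Of the 5 genes most like GHRL or GLP1R, 0 were shared with the 5 found by shape alone. A minimum mean of 200 removes 2 of the 5 for GHRL and all 5 for GLP1R by itself, so that the 3 and 0 genes shared under it say nothing of stability. TMM scaling for the counts of genes, and the alternatives for MBOAT4, were added after seeing the data. Genes with few reads, such as GLP1R and MBOAT4 in LF/LCL replicate 1, GHSR, GCG and PCSK1, are limited by depth. No paired analysis applied, because each cow belonged to 1 group only.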

Other observations

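Some genes of the lists had a high value in 1 cow, and they were picked after their values were seen. PCSK2, a prohormone convertase that releases glucagon in islet cells, had 224 normalized reads in SF/SCL replicate 2, the library with the most GHRL, and between 1.04 and 39.9 in the other libraries. GRP, gastrin-releasing peptide, had 798 in LF/LCL replicate 1, 24.2 in LF/LCL replicate 2, and 34.3, 104 and 0 in SF/SCL replicates 1, 2 and 3. TACR3, the neurokinin B receptor, had 979 in LF/LCL replicate 2 and 70.8 in SF/SCL replicate 3, and its groups overlapped. None of these genes passed an adjusted p of 0.05 with limma.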
